A study of Mus musculus with 6 samples.

Results

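The Rab GTPases are small membrane-bound switches that direct vesicle traffic, and 59 genes of the family were found among the 35976 genes counted in 6 libraries of amygdala neurons. Members were taken by symbol: Rab, then a number, then at most a letter and a further digit. Neurons were enriched magnetically from the dissociated amygdala of male C57BL/6J mice, and the comparison was of 3 sgEgfr libraries with 3 sgRosa libraries. In sgEgfr mice an adeno-associated virus carried guides for Egfr, which encodes the epidermal growth factor receptor, and in sgRosa mice it carried guides for the Rosa26 control locus (genotype label sgRosa26). In both groups Cas9 was driven by GfaABC1D, an astrocyte promoter, so that the targeted cells were astrocytes and the sequenced cells were neurons. All mice of both groups had more than 2 weeks of virus expression, 7 days of tube restraint, fear conditioning on 1 day and then fear extinction over 3 days. The labels give no age. Their protocol text also names microglial viruses with sgRosa or sgAreg and does not say which of these libraries, if any, came from mice that received one. No group without stress or without virus was analysed here. Nor is it stated that different mice gave the 3 libraries of a group, so the spread behind each p-value is that of libraries and may be technical.

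A Rab protein is active on a membrane while it holds GTP and is taken off into the cytosol by a GDP dissociation inhibitor once the GTP has been hydrolysed. Exchange factors load GTP, GTPase-activating proteins speed its hydrolysis, and effectors that bind the active form tether, dock or move the vesicle. Each Rab marks its own compartment: the Rab3 proteins sit on synaptic vesicles, Rab5, Rab4, Rab11 and Rab7 on successive endosomes, and Rab1, Rab2 and Rab6 on the ER and the Golgi. In neurons this traffic supplies transmitter release, receptor recycling and the transport of cargo along axons.

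The proteins are held on membranes by lipid groups added to cysteines at the end of the chain, so the last coding bases show both what the closest family members share and where their messages differ. The last 45 coding bases of the 4 Rab3 genes and of Rab8a and Rab8b are given from the GENCODE annotation of GRCm38, since the balance within these sets is described below. Capitals mark cysteine codons among the last 4 codons before the stop codon.
Rab3a: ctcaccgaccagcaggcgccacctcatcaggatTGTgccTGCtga
Rab3b: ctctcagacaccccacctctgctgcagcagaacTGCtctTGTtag
Rab3c: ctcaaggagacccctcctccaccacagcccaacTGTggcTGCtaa
Rab3d: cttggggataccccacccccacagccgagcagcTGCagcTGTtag
Rab8a: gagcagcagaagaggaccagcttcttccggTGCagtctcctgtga
Rab8b: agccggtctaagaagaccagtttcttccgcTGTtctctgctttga
Each Rab3 sequence ends with 2 cysteine codons separated by another codon, and each Rab8 sequence has 1 cysteine codon followed by 3 others. Over the aligned coding sequence the Rab3 genes were 73.4% to 76.9% identical to each other, and Rab8a and Rab8b were 77.5% identical. The longest run of bases that Rab8a and Rab8b shared was 17 bases, and the longest within the Rab3 set was 33 bases, between Rab3b and Rab3d. How reads matching several genes were counted is not given in the sources used here.

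Total counts were 4849404, 4352966 and 2520426 in the sgEgfr libraries and 4144701, 2348897 and 10152812 in the sgRosa libraries. Levels are given as CPM, the count relative to the TMM-scaled size of the library. On that scale 3 counts were worth 0.270 CPM in the deepest library and 1.25 CPM in the shallowest, for counting error only. Egfr had 6, 18 and 6 counts in the sgEgfr libraries and 1, 26 and 23 counts in the sgRosa libraries (log2 fold change -0.65, standard error 1.03). Cas9 was under an astrocyte promoter, and counts from a neuron preparation do not check a knockdown in astrocytes. All 16 pan-neuronal markers were detected, and their mean log2 CPM was 7.73, 7.26 and 8.06 in the sgEgfr libraries and 6.70, 6.73 and 7.92 in the sgRosa libraries. The summed level of 12 oligodendrocyte markers was higher than that of the neuronal markers in every library, at 22726 to 58205 CPM in sgEgfr and 24744 to 73269 CPM in sgRosa, so the libraries were not pure neurons. Choroid plexus markers summed to 8355 CPM in sgEgfr replicate 1 and 11384 CPM in sgRosa replicate 3, against 509 to 2443 CPM in the other 4 libraries. The 11 tested microglial markers all had positive log2 fold changes (median 1.36), with summed levels of 410.3, 621 and 43.6 CPM in sgEgfr and 87.2, 155 and 212 CPM in sgRosa. All 5 erythroid markers were also above 0 (median 1.78, 3 with an unadjusted p under 0.05), as were all 16 pan-neuronal markers (median 0.42), while all 12 oligodendrocyte markers were below 0 (median -0.86). No marker of the neuronal, glial, vascular, choroid plexus or erythroid lists was at 0 in all libraries, and the part of other cell types in the Rab values was not tested. In bulk samples such as these, fewer cells of a type and less RNA per cell cannot be told apart.

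The family took 0.541% to 0.577% of all counts in the sgEgfr libraries and 0.385% to 0.666% in the sgRosa libraries. Levels between genes were compared as CPM per kilobase of exon. The endosome and Golgi members were the most abundant by this measure. Rab7, which brings late endosomes to lysosomes, averaged 159 ± 1.84 CPM per kb in sgEgfr and 161 ± 21.2 CPM per kb in sgRosa (SD, n = 3 each). Rab6a, which acts in traffic from the Golgi back to the ER, averaged 189 ± 19.0 CPM per kb in sgEgfr and 128 ± 33.0 CPM per kb in sgRosa. Rab1b, an ER-to-Golgi Rab, followed with 115 ± 17.0 CPM per kb in sgEgfr and 125 ± 21.6 CPM per kb in sgRosa. Next in the mean over all 6 libraries came Rab31 (76.7 ± 26.8 CPM per kb in sgEgfr, 98.3 ± 44.4 CPM per kb in sgRosa) and the synaptic vesicle gene Rab3a (90.4 ± 34.8 CPM per kb in sgEgfr, 84.4 ± 56.0 CPM per kb in sgRosa). Rab31, Rab3a and Rab6b, neighbours in this order, lay within the spread of each other. In sgEgfr, Rab7, Rab6a and Rab1b lay further apart than their SDs, while in sgRosa their spreads met. The other 3 Rab3 genes were lower per kb: Rab3c was ranked 21, Rab3d 35 and Rab3b 37 of the 59 genes. The place of Rab3c, and its share of the Rab3 level given further on, rest on an annotated exon length of 12049 bases against 2226 bases for Rab3a: undivided, Rab3c had more counts than Rab3a in all 3 sgEgfr libraries (1429, 978 and 760 against 921, 566 and 721).

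**Figure D1:**
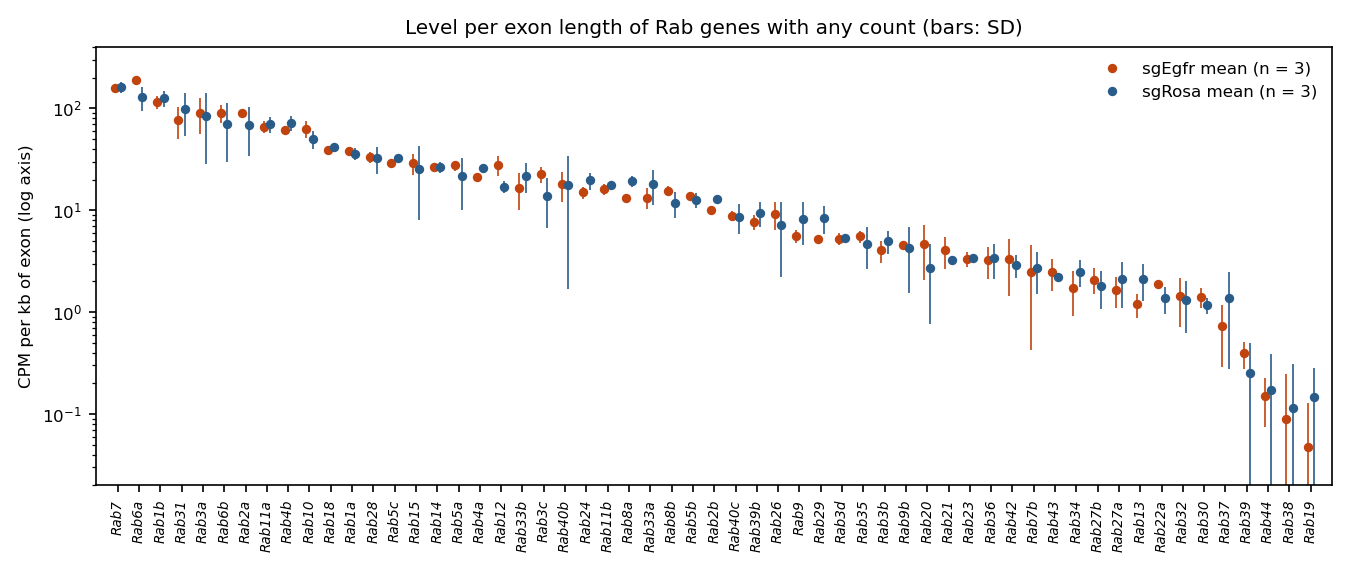
Level per exon length of the 57 Rab genes with any count, in CPM per kb on a log axis, ordered by the mean over 6 libraries; points are group means (n = 3) and bars are SDs, with bars that run below the axis cut there. Rab7, Rab6a and Rab1b stand highest in both groups, and Rab39, Rab44, Rab38 and Rab19, at the right, were too low to test.

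At the lower end, Rab17 and Rab25, Rabs of epithelial recycling endosomes, had 0 counts in all 6 libraries. Rab38, known from pigment granules, had 2 counts in sgEgfr replicate 1, 6 in sgRosa replicate 3 and 0 elsewhere. Rab19, Rab39 and Rab44 had at most 16 counts in any library. These 6 genes did not pass the filter on low counts, which left 53 members among 13159 genes tested. Since the filter asks for enough counts in 3 libraries, counts over the tested members do not describe the whole family.

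No Rab gene passed an adjusted p of 0.05 in sgEgfr against sgRosa by edgeR's quasi-likelihood test, in either direction, and of all 13159 genes tested 0% passed. The lowest adjusted p of a member was 0.820. Without adjustment, 1 member had a p under 0.05 with a higher level in sgEgfr (Rab12) and 1 with a lower level (Rab8a); over all genes the shares were 3.05% higher and 2.72% lower, so the members were near the background. DESeq2 gave 3 such members (Rab12, Rab6a and Rab8a), beside 787 genes with an unadjusted p under 0.05 among all 13159. It also passed none of the 39 members with a defined adjusted p (lowest 0.484), while passing 0.41% of the 8045 genes with one. The members divided evenly by sign, 26 above and 27 below 0, with a median log2 fold change of -0.00021. Over all genes tested the median was -0.04 and 46.2% were above 0. For 44 of the 53 the log2 fold change was under 0.5 in size. For 47 of the 53 it was smaller than the range of log2 CPM among the 3 sgRosa libraries alone. For 37 of the 53 it was smaller than the range among the 3 sgEgfr libraries alone. The shares of all genes were not computed for these 3 counts.

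The sgEgfr and sgRosa libraries did not overlap for 8 members. Rab12 and Rab6a were higher in every sgEgfr library, and Rab5c, Rab4a, Rab29, Rab2b, Rab8a and Rab13 were lower in every one. Over all genes, 5.8% were separated upwards and 7.6% downwards, so 2 and 6 of 53 members are close to those shares.

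**Figure D2:**
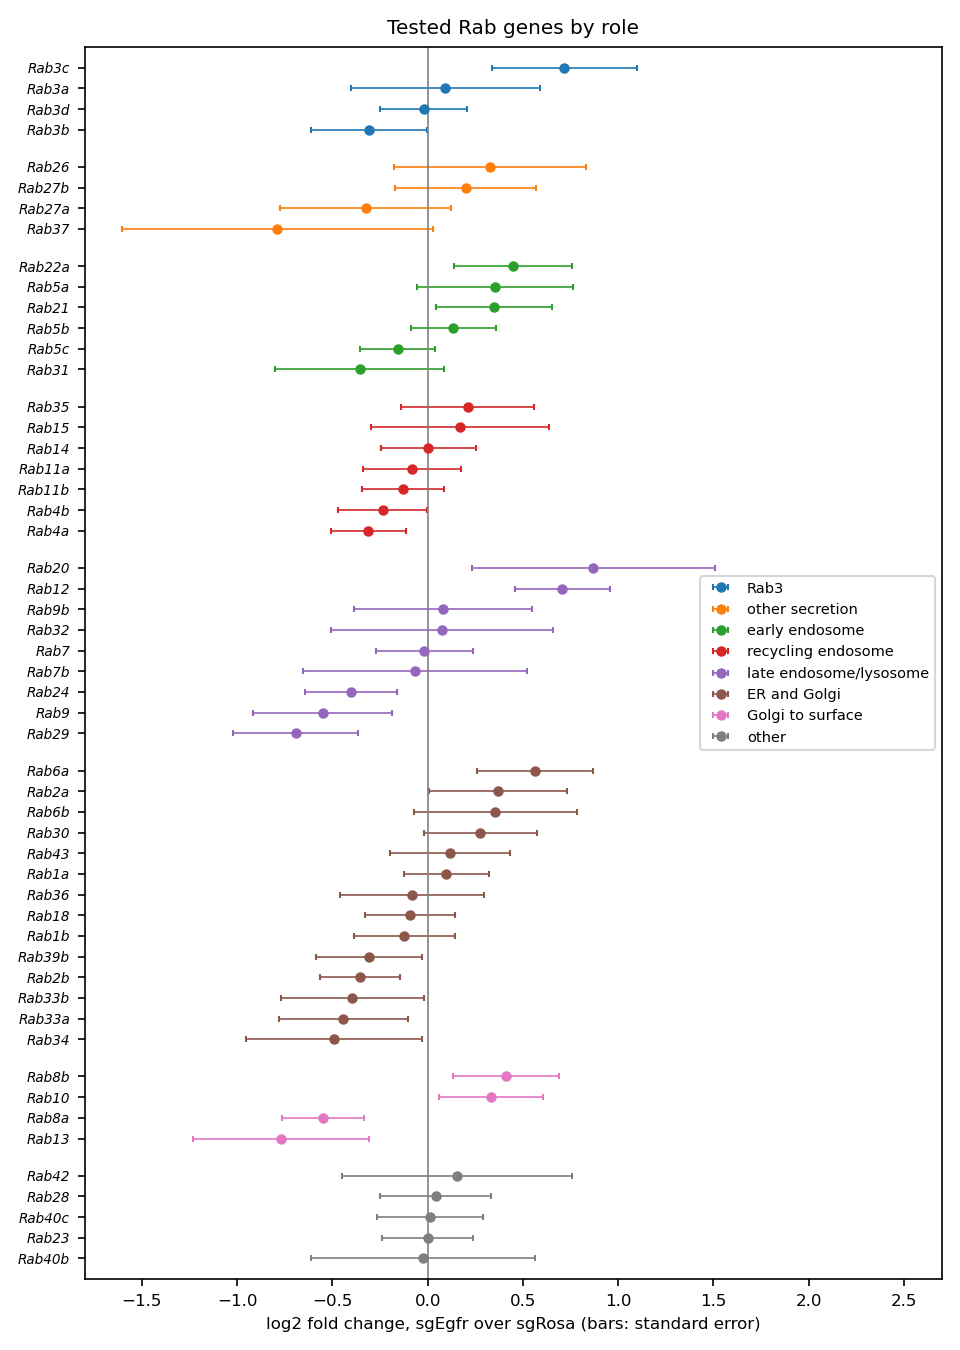
Log2 fold change of sgEgfr over sgRosa for the 53 tested Rab genes, grouped and coloured by the compartment or route each is known for; bars are standard errors. Every role holds genes on both sides of 0, and the fold changes run between -0.79 (Rab37) and 0.87 (Rab20).

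The Rab3 proteins, which bind synaptic vesicles and help to dock and prime them for release, had no common direction. Of the 4 genes 2 were above and 2 below 0, with a median log2 fold change of 0.04. Rab3c (chromosome 13) had the largest difference of the 4, with 305, 218 and 296 CPM in sgEgfr against 126, 107 and 263 CPM in sgRosa. Of the sgRosa libraries only replicate 3 reached the sgEgfr range (log2 fold change 0.72, standard error 0.38, edgeR adjusted p = 0.820). Without that library the log2 fold change of Rab3c was 1.22, and with the pan-neuronal level of each library as a covariate it was 0.33. Rab3a, the main Rab3 of brain synapses (chromosome 8, 70754679 to 70758677), had 196, 126 and 281 CPM in sgEgfr against 119, 113 and 332 CPM in sgRosa. The sgEgfr values lay inside the sgRosa range, and sgRosa replicate 3 was above every sgEgfr library (log2 fold change 0.09, standard error 0.49). An exon of Rab3a overlaps Mpv17l2 on the other strand, and the strand setting of the counts is not given in the sources used here.

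Rab3b and Rab3d, which are also known from hormone-secreting and gland cells, were lower per kb than Rab3a and Rab3c. Rab3b had 12.2, 12.3 and 18.3 CPM in sgEgfr against 13.2, 22.1 and 17.4 CPM in sgRosa (log2 fold change -0.31, standard error 0.30). Its lowest values were in sgEgfr replicates 1 and 2 and in sgRosa replicate 1. Rab3d had 23.2, 18.5 and 24.5 CPM in sgEgfr against 20.2, 22.6 and 24.2 CPM in sgRosa, with the sgRosa values inside the sgEgfr range (log2 fold change -0.02, standard error 0.23).

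**Figure D3:**
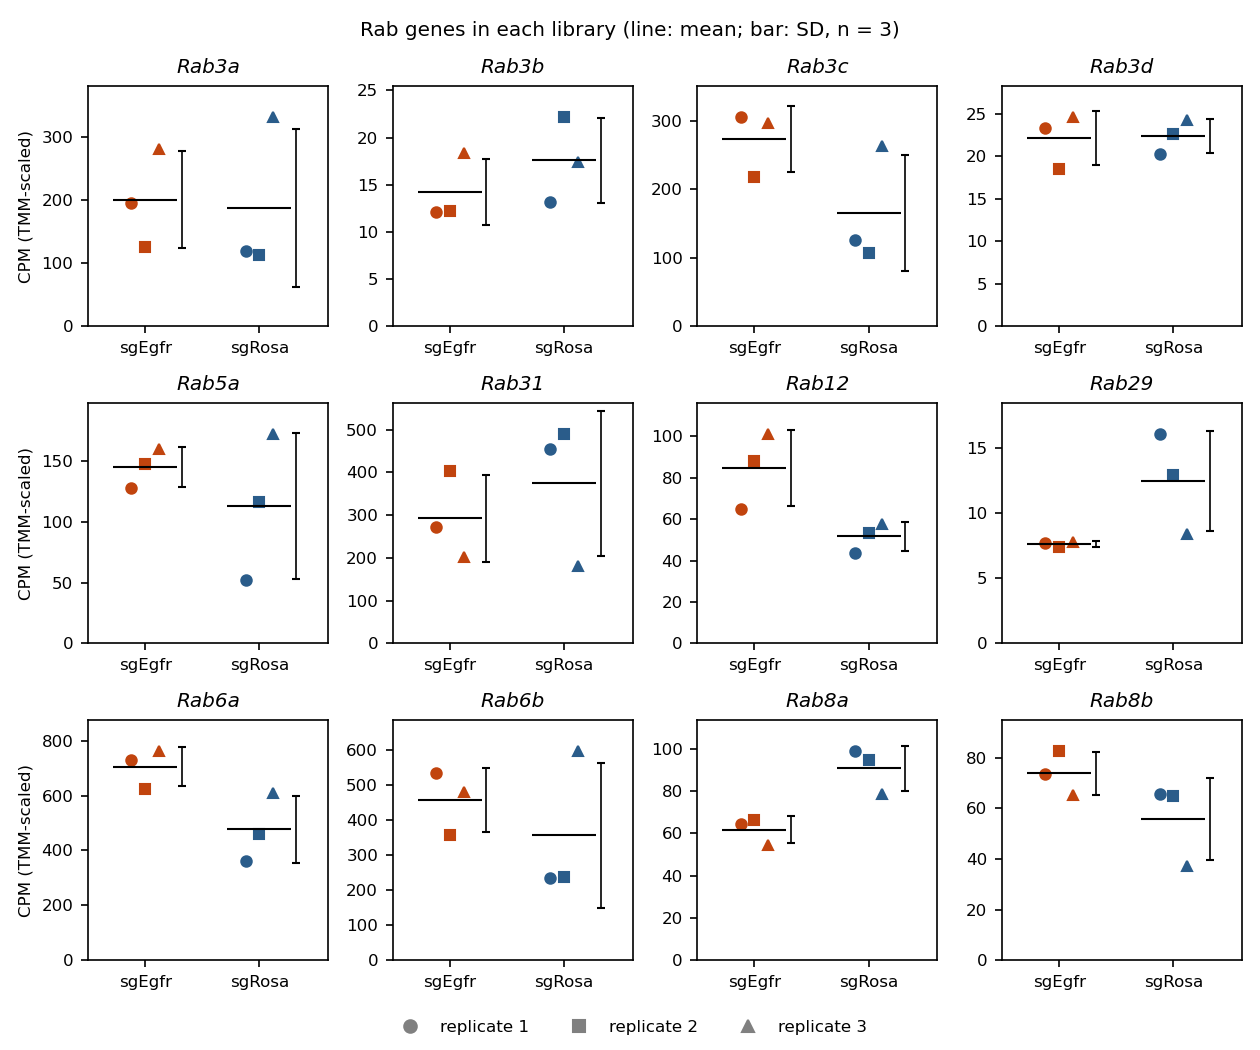
TMM-scaled CPM of 12 Rab genes in each of the 6 libraries, with sgEgfr at the left and sgRosa at the right of each panel; lines are means and bars SDs (n = 3). In Rab3a, Rab3c and Rab6b the third sgRosa library stands well above the other 2, and only Rab12, Rab29, Rab6a and Rab8a of these 12 have no overlap between groups.

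The other Rabs of regulated secretion were low. Rab27a and Rab27b act on secretory granules and lysosome-related organelles, Rab26 is known from synaptic vesicle clusters and Rab37 from secretory granules. Rab26 had 32.8, 17.2 and 29.2 CPM in sgEgfr against 16.9, 8.35 and 36.0 CPM in sgRosa (log2 fold change 0.33, standard error 0.50). Rab27a had 4.05, 6.92 and 8.18 CPM in sgEgfr against 6.19, 12.5 and 5.67 CPM in sgRosa (log2 fold change -0.32, standard error 0.45). Rab37 had 5.12, 5.36 and 1.17 CPM in sgEgfr against 7.31, 13.4 and 1.53 CPM in sgRosa (log2 fold change -0.79, standard error 0.82). Single libraries set the size of all 3 values. Without sgRosa replicate 2 the log2 fold change was 0.026 for Rab26, 0.12 for Rab27a and -0.056 for Rab37. Without sgRosa replicate 3 it was 1.03 for Rab26, -0.55 for Rab27a and -1.33 for Rab37. The groups overlapped for all 3, and Rab37 was lowest in replicate 3 of both groups, the 2 libraries with the highest neuronal markers and the lowest oligodendrocyte markers. Rab27b had a log2 fold change of 0.20.

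Among the 6 early endosome Rabs, 4 had positive and 2 negative log2 fold changes, with a median of 0.24. Rab5a, which drives the fusion of early endosomes, had 128, 148 and 160.2 CPM in sgEgfr against 52.0, 116 and 172 CPM in sgRosa (log2 fold change 0.35, standard error 0.41). The sgRosa values were spread over more than the whole sgEgfr range, and the log2 fold change was 0.032 without sgRosa replicate 1 and 0.80 without sgRosa replicate 3. Rab22a, of early endosome and Golgi traffic, had 14.5, 14.1 and 12.1 CPM in sgEgfr against 6.75, 10.02 and 12.7 CPM in sgRosa (log2 fold change 0.45, standard error 0.31). Rab21, a Rab of integrin endocytosis, had 19.6, 28.3 and 14.0 CPM in sgEgfr against 14.3, 16.7 and 17.8 CPM in sgRosa (log2 fold change 0.35, standard error 0.30). Both overlapped between groups through sgEgfr replicate 3. Rab31, a close relative of Rab22a, was the most abundant of them per kb, with 271, 403 and 202 CPM in sgEgfr against 455, 489 and 180.3 CPM in sgRosa (log2 fold change -0.36, standard error 0.44). Across the libraries it was high where the oligodendrocyte markers were high: their sums were 39670, 58205 and 22726 CPM in sgEgfr and 73269, 66071 and 24744 CPM in sgRosa. With the pan-neuronal covariate the log2 fold change of Rab31 was 0.37.

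The paralogs Rab5b and Rab5c had log2 fold changes of 0.14 and -0.16. Rab5c had 64.8, 63.6 and 64.3 CPM in sgEgfr against 76.5, 65.6 and 72.8 CPM in sgRosa, so that its groups were separated by a gap of under 1 CPM. It was chosen for mention after its values were seen.

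Of the 9 recycling endosome Rabs, 7 were tested, with 3 above and 4 below 0 and a median log2 fold change of -0.08. Rab4a, of the fast recycling route, was even within groups, with 39.2, 34.8 and 36.6 CPM in sgEgfr against 45.8, 43.4 and 47.9 CPM in sgRosa. Every sgEgfr value was below every sgRosa value (log2 fold change -0.31, standard error 0.20, edgeR adjusted p = 0.829). Its paralog Rab4b had 121, 113 and 128 CPM in sgEgfr against 115, 153 and 158 CPM in sgRosa, with an overlap (log2 fold change -0.24, standard error 0.23). Rab11a, of the slow recycling route, was the highest of these genes per kb, within the spread of Rab4b, and had 204, 171 and 219 CPM in sgEgfr against 229, 165 and 235 CPM in sgRosa (log2 fold change -0.08, standard error 0.26). Rab35, which acts in endocytic recycling and neurite growth, had 17.3, 16.5 and 13.2 CPM in sgEgfr against 10.7, 9.19 and 19.98 CPM in sgRosa (log2 fold change 0.21, standard error 0.35). The remaining tested genes, Rab11b, Rab14 and Rab15, had log2 fold changes of -0.13, 0.00 and 0.17.

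The late endosome and lysosome members spread most widely, with log2 fold changes between -0.69 (Rab29) and 0.87 (Rab20) and a median of -0.02 over the 9 tested. Both ends were genes of low counts. The 4 Golgi-to-surface genes ran between -0.77 and 0.41, so a wide range was not particular to this class. Rab12, which carries receptors to lysosomes (chromosome 17), had the lowest p of the family. It had 64.8, 88.1 and 101 CPM in sgEgfr against 43.9, 53.5 and 57.8 CPM in sgRosa. The lowest sgEgfr library was above the highest sgRosa library, and the mean of 84.6 ± 18.3 CPM in sgEgfr compared with 51.7 ± 7.12 CPM in sgRosa (SD, n = 3 each). The log2 fold change was 0.71 (standard error 0.25, 1.63-fold, edgeR adjusted p = 0.820), and 0.60 with the pan-neuronal covariate. It was the gene with rank 255 by p among the 13159 tested. Rab29, a Golgi and lysosome Rab known for recruiting the kinase LRRK2, pointed the other way with 7.68, 7.36 and 7.79 CPM in sgEgfr against 16.0, 12.9 and 8.37 CPM in sgRosa. The sgEgfr values lay close together just under the lowest sgRosa value (log2 fold change -0.69, standard error 0.33, edgeR adjusted p = 0.820).

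Rab24, an unusual Rab of autophagy, had 32.0, 25.2 and 33.1 CPM in sgEgfr against 42.7, 30.9 and 45.1 CPM in sgRosa (log2 fold change -0.40, standard error 0.24). Its exons overlap those of Prelid1 on the other strand. Rab7 was even across the sgEgfr libraries, at 412, 421 and 413 CPM, and more spread in sgRosa, at 360.2, 432 and 469 CPM (log2 fold change -0.02, standard error 0.25). The largest positive log2 fold change in the family was that of Rab20, a phagosome Rab of macrophages, chosen for mention after its values were seen. It had 5.97, 10.3 and 3.12 CPM in sgEgfr against 1.41, 6.68 and 3.15 CPM in sgRosa, with a wide overlap (log2 fold change 0.87, standard error 0.64). Its highest library, sgEgfr replicate 2, had the highest sum of microglial markers (621 CPM). That library was also highest for astrocyte (1788 CPM), oligodendrocyte precursor (429 CPM) and erythroid markers (4047 CPM). The library second for Rab20, sgRosa replicate 2, had 155 CPM of microglial markers, below the 410 CPM of sgEgfr replicate 1. The cell source of Rab20 was not tested. Rab9, which returns cargo from late endosomes to the Golgi, had a log2 fold change of -0.55 and its paralog Rab9b one of 0.08; Rab32 had 0.07 and Rab7b -0.06.

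The ER and Golgi members numbered 16, of which 14 were tested, 6 above and 8 below 0 with a median log2 fold change of -0.09. Rab6a had the largest positive value of them, with 729, 625 and 761 CPM in sgEgfr against 363, 459 and 607 CPM in sgRosa. The groups were separated by the small gap between 607 and 625 CPM (log2 fold change 0.56, standard error 0.30, edgeR adjusted p = 0.820). Exons of Rab6a overlap Mrpl48 on the other strand. Its neuronal paralog Rab6b, given although it is not among the leading genes, had 534, 356 and 479.7 CPM in sgEgfr against 236, 238 and 596 CPM in sgRosa (log2 fold change 0.36). Rab2b had 37.3, 46.0 and 41.3 CPM in sgEgfr against 56.5, 46.8 and 56.1 CPM in sgRosa, separated by less than 1 CPM (log2 fold change -0.36, standard error 0.21), while its more abundant paralog Rab2a had 0.37. Rab2 proteins act between the ER and the Golgi, and exons of Rab2b overlap Tox4 on the other strand. Rab33a, a Golgi Rab linked to axon growth, had 13.9, 12.9 and 19.5 CPM in sgEgfr against 29.0, 13.4 and 19.9 CPM in sgRosa (log2 fold change -0.44, standard error 0.34), and its log2 fold change was -0.12 without sgRosa replicate 1. The other tested genes of the class were Rab1a, Rab1b, Rab18, Rab30, Rab33b, Rab34, Rab36, Rab39b and Rab43, with log2 fold changes between -0.49 and 0.28.

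The Rabs that carry vesicles from the Golgi to the cell surface were split within the class. Rab8a, which serves polarised secretion and the primary cilium (chromosome 8), had 64.6, 66.3 and 54.6 CPM in sgEgfr against 98.7, 94.8 and 78.5 CPM in sgRosa. All sgEgfr values were lower than all sgRosa values, with a mean of 61.8 ± 6.34 CPM in sgEgfr and 90.7 ± 10.7 CPM in sgRosa (SD, n = 3 each). The log2 fold change was -0.55 (standard error 0.22, edgeR adjusted p = 0.820), and -0.40 with the pan-neuronal covariate. Its paralog Rab8b had 73.8, 82.6 and 65.5 CPM in sgEgfr against 65.8, 64.7 and 37.3 CPM in sgRosa (log2 fold change 0.41, standard error 0.28). Here the groups met at 65.5 and 65.8 CPM. Rab10, known for the transport of glucose transporters and for axon growth, had 232, 255 and 177 CPM in sgEgfr against 135, 188 and 205 CPM in sgRosa (log2 fold change 0.33, standard error 0.27). Rab13, a Rab of tight junctions, was low, with 2.99, 3.35 and 1.95 CPM in sgEgfr against 7.03, 4.18 and 3.42 CPM in sgRosa (log2 fold change -0.77, standard error 0.46). Its separation between groups rested on counts of 14, 15 and 5 in sgEgfr and 25, 10 and 38 in sgRosa.

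The 5 tested genes outside these routes had log2 fold changes between -0.02 and 0.15. Rab28, a Rab of cilia and photoreceptors, was the highest of them per kb, with 165, 129 and 158 CPM in sgEgfr against 97.0, 167 and 175 CPM in sgRosa (log2 fold change 0.04, standard error 0.29). Rab40b, which joins a ubiquitin ligase through its SOCS box, had 33.1, 25.7 and 49.1 CPM in sgEgfr against 16.0, 18.0 and 72.6 CPM in sgRosa (log2 fold change -0.02, standard error 0.59). Its value in sgRosa replicate 3 was above those of all other libraries; the log2 fold change was 1.07 when that library was left out. Rab42 had 3.63, 0.893 and 3.12 CPM in sgEgfr against 1.69, 2.09 and 2.79 CPM in sgRosa (log2 fold change 0.15, standard error 0.60). Rab40c and Rab23 (a cilium Rab of Hedgehog signalling) had values of 0.01 and -0.00.

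The synaptic Rab3 genes were then set against the endosomal and the ER and Golgi members within each library. The mean log2 CPM of the 4 Rab3 genes exceeded that of the 22 tested endosomal genes by 0.58, 0.11 and 1.00 in sgEgfr and by 0.27, 0.28 and 0.74 in sgRosa. The group means were 0.56 ± 0.45 in sgEgfr and 0.43 ± 0.27 in sgRosa (SD, n = 3 each), a difference of 0.13 that is smaller than either SD. Against the 14 tested ER and Golgi genes the Rab3 mean differed by 0.12, -0.20 and 0.31 in sgEgfr and by -0.35, -0.21 and 0.20 in sgRosa, so the groups overlapped again, with a difference of 0.19 between means of 0.07 ± 0.26 in sgEgfr and -0.12 ± 0.28 in sgRosa. In both measures replicate 3 was the highest library of its group. The 2 libraries of replicate 3 also had the highest pan-neuronal means of their groups. With the pan-neuronal covariate the differences were -0.19 against endosomal genes and -0.06 against ER and Golgi genes. Without sgEgfr replicate 3 the difference against endosomal genes was -0.09, so its sign rested on that library. No direction between the synaptic and the endosomal or Golgi Rabs can be given from these data.

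**Figure D4:**
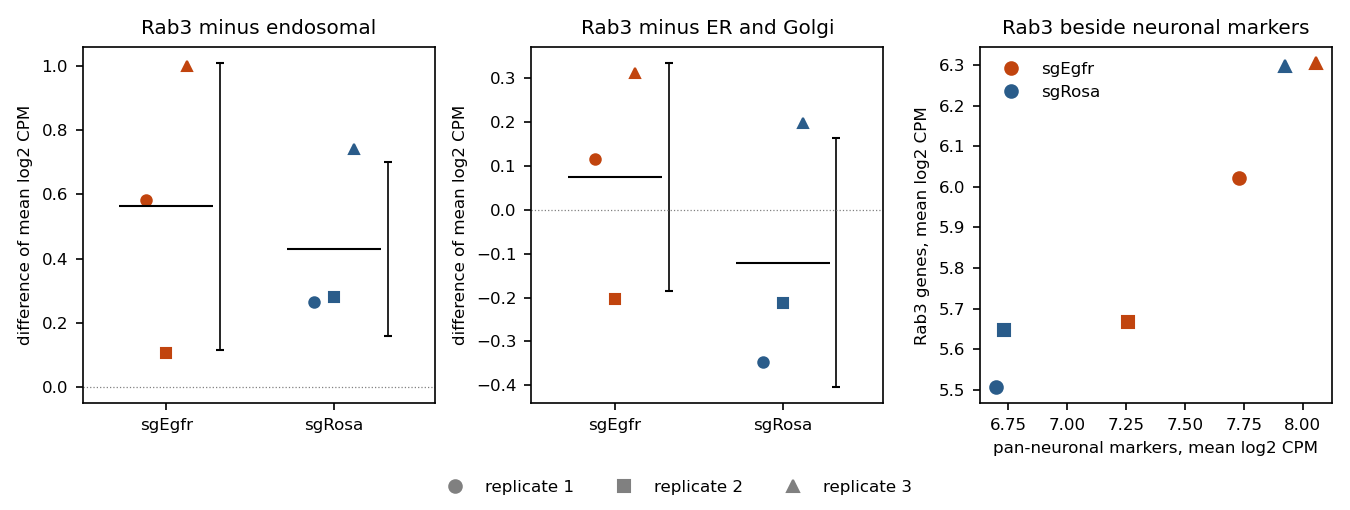
Left and centre, the mean log2 CPM of the Rab3 genes minus that of the endosomal or the ER and Golgi genes in each library (lines, means; bars, SD, n = 3). Right, the Rab3 mean of each library against its mean of 16 pan-neuronal markers; replicate 3 of both groups is highest on both axes, at 6.30 for the Rab3 genes.

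The balance within paralog sets was examined next. For 13 sets of close paralogs the share of a gene in the summed level per kb of its set was computed, 18 shares in all, and compared by an exact two-sided permutation test over the libraries. With 3 libraries against 3 the smallest p this test allows is 0.1. These shares were computed after the members' values had been seen, and 2 of the 18 did not overlap between the groups. At a smallest p of 0.1 a count of 2 in 18 supports no difference, and both shares are given as a description. Rab8a made up 47.0%, 44.8% and 45.7% of the Rab8 level in sgEgfr against 60.3%, 59.7% and 68.1% in sgRosa. The mean difference of -16.8 percentage points was larger than the SDs of 1.08 in sgEgfr and 4.67 in sgRosa (exact permutation p = 0.1, adjusted p = 0.9 over the 18). Rab3c made up 20.6%, 21.9% and 15.2% of the Rab3 level in sgEgfr against 14.4%, 12.5% and 12.01% in sgRosa, a mean difference of 6.26 percentage points with SDs of 3.56 in sgEgfr and 1.28 in sgRosa (exact permutation p = 0.1, adjusted p = 0.9). Unlike the level of Rab3c itself, its share in sgRosa replicate 3 was with the other sgRosa libraries.

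When each library in turn was left out, the difference stayed between -18.3 and -14.1 percentage points for Rab8a and between 4.93 and 8.28 for Rab3c. With the pan-neuronal covariate it was -19.9 and 7.90 percentage points. Both shares were picked because their groups did not overlap, so leaving out a single library could not turn the sign of either difference. The other 16 shares overlapped: Rab3a, for example, held 72.0%, 68.6% and 78.0% of the Rab3 level in sgEgfr and 73.8%, 71.1% and 82.1% in sgRosa. Rab6a, whose level was separated between groups, held 64.8%, 70.3% and 68.2% of the Rab6 level in sgEgfr and 67.5%, 72.3% and 57.9% in sgRosa. Rab11a held 75.9% to 82.8% of the Rab11 level in all libraries.

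**Figure D5:**
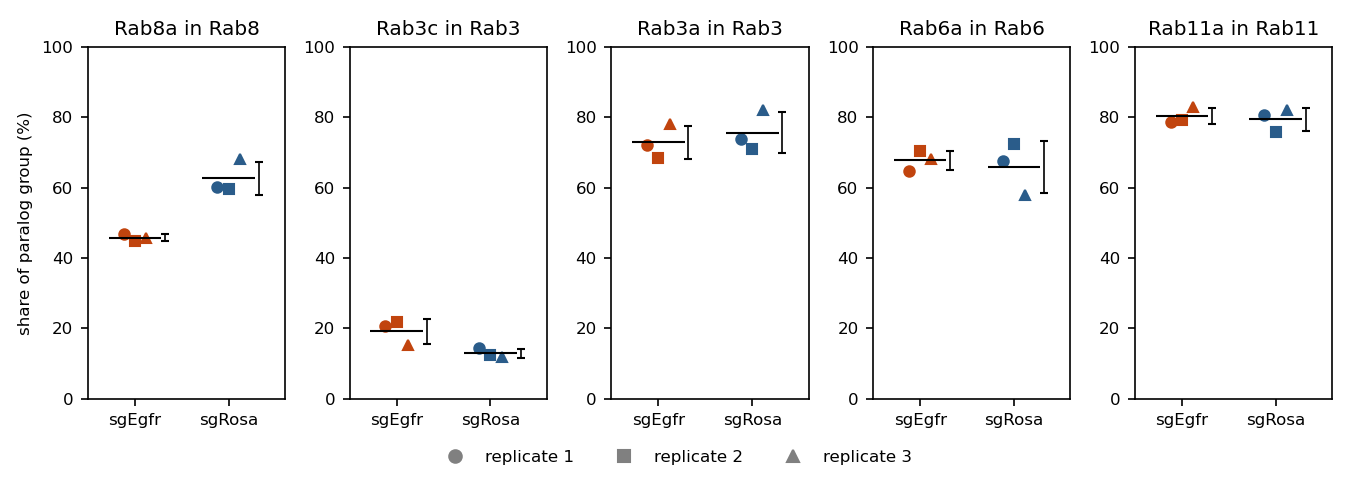
Share of Rab8a, Rab3c, Rab3a, Rab6a and Rab11a in the summed level per kb of their paralog sets, in percent, for each library (lines, means; bars, SD, n = 3). The 3 sgEgfr libraries lie at 44.8% to 47.0% for Rab8a, below the 59.7% to 68.1% of the sgRosa libraries, and the shares of Rab3a, Rab6a and Rab11a overlap.

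Genes that load, switch off, deliver or read Rab proteins were described from 7 lists. No gene of these lists passed in either direction by edgeR's test, against 0% of all genes. DESeq2 passed 1 of them, Dennd5b, with an adjusted p of 0.0284, beside the 0.41% of all genes that it passed. Over all genes, 5.8% were separated upwards and 7.6% downwards. Inhibitor, escort and prenylation genes had 0 upwards and 1 downwards of 8. Exchange factors had 4 and 3 of 30, and GTPase-activating genes 3 and 3 of 33. Effectors of Rab3 and Rab27 had 1 and 0 of 13, and endosomal effectors 3 and 3 of 28. ER and Golgi effectors had 3 and 2 of 24, and the LRRK2 list 2 and 0 of 6. The genes named below were picked by lowest p, which favours separated groups. Of the 8 genes for GDP dissociation inhibitors, escort proteins and the prenylating enzyme, 7 were below 0 (median log2 fold change -0.11). The lowest p among them was that of Rabac1, a receptor that can free Rabs from their inhibitor, with 57.2, 52.2 and 58.4 CPM in sgEgfr against 103, 84.8 and 80.3 CPM in sgRosa. Its groups did not overlap (log2 fold change -0.68, standard error 0.21, edgeR adjusted p = 0.820). The groups overlapped for the enzyme subunit genes. Rabggtb had 16.8, 16.1 and 20.3 CPM in sgEgfr against 23.9, 16.3 and 28.7 CPM in sgRosa (log2 fold change -0.39). Rabggta had 10.7, 12.05 and 18.7 CPM in sgEgfr against 21.4, 12.5 and 16.9 CPM in sgRosa (log2 fold change -0.32).

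Among 30 tested exchange factor genes, 18 were above and 12 below 0 (median log2 fold change 0.07). Dennd5b, which has a DENN domain, had 64.0, 63.8 and 70.9 CPM in sgEgfr against 27.0, 37.6 and 27.8 CPM in sgRosa. Every sgEgfr library was well above every sgRosa library (log2 fold change 1.11, standard error 0.23, edgeR adjusted p = 0.820). Dennd4a, another DENN domain gene, had 46.9, 79.7 and 53.8 CPM in sgEgfr against 34.3, 42.2 and 34.3 CPM in sgRosa (log2 fold change 0.71, standard error 0.26). Hps1, a subunit of the exchange factor for Rab32 and Rab38, was low, with 3.41, 4.02 and 3.12 CPM in sgEgfr against 6.19, 12.1 and 5.67 CPM in sgRosa (log2 fold change -1.13, standard error 0.42). Both were separated between groups, in opposite directions.

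The 33 tested genes with a GTPase-activating TBC domain or related function divided into 18 above and 15 below 0 (median log2 fold change 0.03). Tbc1d7, also a subunit of the TSC complex, had 11.9, 9.37 and 8.57 CPM in sgEgfr against 14.9, 18.0 and 14.2 CPM in sgRosa (log2 fold change -0.64, standard error 0.27). Evi5, which binds Rab11, had 67.0, 60.7 and 65.1 CPM in sgEgfr against 38.5, 40.5 and 54.9 CPM in sgRosa (log2 fold change 0.52, standard error 0.23). These were separated in opposite directions. Tbc1d17 overlapped between groups, with 33.1, 29.7 and 38.2 CPM in sgEgfr against 54.6, 54.3 and 37.5 CPM in sgRosa (log2 fold change -0.53).

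Effectors showed no common direction. Of 13 tested effectors of Rab3 and Rab27, 9 were above 0 (median log2 fold change 0.13). Rph3al, which binds Rab3 and Rab27 on granules, had 5.76, 6.02 and 11.7 CPM in sgEgfr against 1.97, 4.59 and 4.77 CPM in sgRosa (log2 fold change 1.00, standard error 0.48). Sytl4 and Sytl5 encode synaptotagmin-like Rab27 effectors. Sytl4 had a log2 fold change of -1.59 with 3.199, 9.82 and 2.34 CPM in sgEgfr against 3.94, 41.8 and 4.23 CPM in sgRosa, where replicate 2 stands alone. Sytl5 had 8.10, 8.93 and 9.35 CPM in sgEgfr against 22.5, 21.7 and 8.10 CPM in sgRosa (log2 fold change -0.96). Of 28 tested endosomal effectors, 14 were above and 14 below 0, and the lowest p was that of the recycling adaptor Rab11fip2, with 49.9, 44.6 and 43.6 CPM in sgEgfr against 24.7, 23.4 and 43.4 CPM in sgRosa (log2 fold change 0.58, standard error 0.29). The paralogous Rab5 effectors Appl1 and Appl2 had values of opposite sign with overlapping groups. Appl1 had 108, 92.8 and 109.9 CPM in sgEgfr against 66.9, 66.4 and 95.0 CPM in sgRosa (log2 fold change 0.44), and Appl2 had 23.5, 41.3 and 16.8 CPM in sgEgfr against 59.6, 53.0 and 25.7 CPM in sgRosa (log2 fold change -0.74). Of 24 tested ER and Golgi effectors, 13 were above and 11 below 0. Erc1, which binds Rab6, had 51.6, 43.5 and 64.7 CPM in sgEgfr against 36.8, 35.9 and 39.2 CPM in sgRosa (log2 fold change 0.51, standard error 0.23). Optn, which binds Rab8, had 15.4, 11.8 and 7.40 CPM in sgEgfr against 18.6, 17.5 and 16.0 CPM in sgRosa (log2 fold change -0.57, standard error 0.31). The tether gene Gorasp1 overlapped, with 16.2, 12.7 and 15.2 CPM in sgEgfr against 15.2, 25.1 and 22.1 CPM in sgRosa (log2 fold change -0.50).

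The last list held 6 genes around the kinase LRRK2, which phosphorylates Rab8a, Rab10, Rab12 and Rab29 among others; 5 of them were above 0, with a median log2 fold change of 0.39. Ppm1h, the phosphatase that reverses this phosphorylation, had 209.6, 148 and 154 CPM in sgEgfr against 54.3, 89.4 and 95.1 CPM in sgRosa. Every sgEgfr library was higher (log2 fold change 1.10, standard error 0.30, edgeR adjusted p = 0.820). Spag9, a motor adaptor that binds phosphorylated Rabs, had 194, 222 and 173 CPM in sgEgfr against 159, 139.9 and 116 CPM in sgRosa, also without overlap (log2 fold change 0.51, standard error 0.24). Vps13c, a lipid transfer protein of late endosomes, overlapped between groups, with 33.1, 23.4 and 41.3 CPM in sgEgfr against 13.8, 11.7 and 31.2 CPM in sgRosa (log2 fold change 0.74). The Rab substrates themselves had values of both signs, 0.71 for Rab12 and 0.33 for Rab10 against -0.55 for Rab8a and -0.69 for Rab29.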

How the data were processed

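The data were raw read counts per gene, deposited by the authors without normalization, per library and again in a table of the series. The 6 columns of that table that match a sample held the same values, and 3 further columns, which match none, were not used. The tools named, per the submitters' processing notes, are FastQC 0.11.9, MultiQC 1.11, STAR 2.7.5c, fastp 0.23.2, edgeR 3.42.4 and featureCounts 2.0.1, with the build mm10; order, options, annotation and strand setting are not given in the sources used here. Libraries were made from 5 ng of RNA, per the labels' protocols, and carry no molecular identifiers, so that the levels given for 3 counts cover counting error only. Groups were taken from the sample titles.

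Genes passing filterByExpr (minimum count 10, minimum total 15) were TMM-scaled and fitted by edgeR's robust quasi-likelihood test (edgeR 4.0.16, R 4.3.3), adjusted by Benjamini-Hochberg over all 13159 genes with a threshold of 0.05. Standard errors were worked out from F statistics and fold changes. The common biological coefficient of variation was 0.355, and no pair of replicates agreed within sampling noise (lowest chi-square per degree of freedom 9.53). Mean log2 CPM used a prior count of 2. Coordinates, exon lengths and coding sequences come from GENCODE M21 (GRCm38, the assembly that mm10 names), in which all 59 members were found. Exons of 15 members overlap a gene on the other strand.

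The members, roles and lists were chosen with earlier results of these data known. Library values were given for the Rab3 genes, for members with an unadjusted p under 0.05, for the 3 lowest p and the highest level per kb in each role and for the 3 lowest p in each regulator list, with a few others said to be added. Alternatives were DESeq2 1.42.0, limma-voom (limma 3.58.1, quality weights), scaling by RLE, upper quartile or library size, filters that were absent or stricter (mean count 20 and at least 1 CPM in 3 libraries), a replicate block, a pan-neuronal covariate, a prior count of 0.5 and leaving out libraries. Paralog shares, the regulator counts and counts of unadjusted p under these settings were added after the data were seen.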

Additional observations from a re-analysis of the deposited data

How the results depend on the processing

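No Rab member passed under any alternative run. Over all genes, 1 gene passed with no filter and 33 with DESeq2, and the regulator lists had 1 call with DESeq2. The number of members with an unadjusted p under 0.05, 2 as reported, was 1 with library-size scaling or no filter, 8 with limma-voom, 6 with the pan-neuronal covariate, 7 without the 2 libraries high in choroid plexus markers (sgEgfr replicate 1 and sgRosa replicate 3), and between 0 and 12 when each library was left out, the 12 without sgRosa replicate 3 and 0 without sgEgfr replicate 2, sgEgfr replicate 3 or sgRosa replicate 1. The shares of all genes with such a p were not computed under these settings. These counts are therefore not a result about the members. The median log2 fold change of the members was -0.12 with the pan-neuronal covariate and between -0.079 and 0.12 when each library was left out. No scaling moved the median of all genes by over 0.1. The cause of these shifts was not tested.

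The signs of Rab12, Rab8a, Rab3c, Rab6a and Rab29 were the same under every alternative. So were those of Rab3b, Rab22a, Rab21, Rab5a, Rab4a, Rab4b, Rab35, Rab24, Rab2b, Rab33a, Rab8b and Rab10. Rab13 also kept its sign wherever it was tested. A stable sign was therefore not particular to a few genes, and all alternatives drew on the same 6 libraries. The log2 fold change changed sign with the pan-neuronal covariate for Rab3a (-0.52), Rab37 (0.64), Rab26 (-0.16), Rab31 (0.37), Rab42 (-0.22) and Rab28 (-0.15), and with limma-voom for Rab11a (0.14) and Rab3d (0.015). With no filter it turned for Rab3d (0.0095), Rab7 (0.014) and Rab40b (0.012), with the stricter filter for Rab3d (0.0065), Rab7 (0.011) and Rab40b (0.036), and without the choroid plexus libraries for Rab3d (0.0099), Rab7 (0.080) and Rab40b (1.13). Rab40b also turned with RLE scaling (0.011), DESeq2 (0.034) and limma-voom (0.65). When each library was left out, the values ran between -1.19 and 0.98 for Egfr, -0.18 and 0.79 for Rab3a, -0.074 and 0.12 for Rab3d, -0.55 and 0.12 for Rab27a, -0.20 and 0.037 for Rab11a, -0.097 and 0.067 for Rab7, -0.24 and 0.62 for Rab42, -0.16 and 0.19 for Rab28, -0.34 and 1.07 for Rab40b, and -2.48 and 0.38 for Sytl4, whose sign turned without sgRosa replicate 2. The range of Egfr lacks the run without sgEgfr replicate 2, in which Egfr was not among the genes tested. Whether the replicate numbers pair the samples was not settled. Same-numbered libraries correlated at -0.03, 0.48 and 0.28 in their deviations from the group means. For sgEgfr replicates 2 and 3 the same-numbered sgRosa library correlated best. For sgEgfr replicate 1 the best was sgRosa replicate 3 (0.21). The deviations of a gene sum to 0 within each group, so these correlations are tied to each other and cannot decide it. With the replicate block 0 genes passed, 3 members had an unadjusted p under 0.05 and Rab40b had a log2 fold change of 0.30. For this setting too, the share of all genes with such a p was not computed. Depth limits the low members most: the smallest library had 2348897 counts.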
